A study of Mus musculus with 6 samples.

Results

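The genes described here are 38 genes of the integrated stress response and of amino acid metabolism and transport, out of 53465 genes in the table. They were listed by name as the transcription factor ATF4, its partners and targets, the serine synthesis enzymes and the amino acid transporters. Inhbe and Cth are set apart within the list because they were selected on their fold change and adjusted p in these same libraries, and the question is whether they moved with the other members. The fold changes, intervals and calls of the members are therefore given as a description of these libraries, and no conclusion is drawn from them. All 38 genes had a row in the table, and 35 passed the filter on low counts.

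Messenger RNA of EMT6, a mammary carcinoma line of the mouse, was sequenced in 6 libraries of cultured cells. In P-VITRO (3 libraries, labelled Parental), the cells were grown with an isotype control antibody. In PTR-VITRO (3 libraries, labelled anti-PD-L1 Resistant), they were grown with an antibody against PD-L1 (αPD-L1), the tumor surface protein that restrains T cells. Both antibodies were given at 0.5 μg/ml for more than 4 weeks, in RPMI medium with 5% serum that was renewed every few days. Neither culture held immune cells, so the label Resistant names a culture that had only been exposed to the antibody. The labels do not say that the replicates were separate cultures, and the study calls its replicates technical where nothing else is stated, so p-values measure the spread between these libraries.

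The total count per library ran from 17757341 to 32426739, and 3 counts, taken as the floor, corresponded to 0.0925 to 0.169 CPM (counts scaled to the size of the library). The floor covers counting error only. Krt8, Krt18 and Vim, which mark epithelial and mesenchymal tumor cells, were high in both groups, with mean Krt8 at 1077 CPM in P-VITRO against 1086 CPM in PTR-VITRO. Some epithelial markers were without overlap between the groups, in both directions, as were 17.6% of all genes tested. Epcam had only 30 to 70 counts per library. Krt18 had a log2 fold change of 0.17 (SE 0.0389), Epcam of 0.48 (SE 0.199) and Krt14 of -0.25 (SE 0.0964), and their part in the results below was not tested. The epithelial cadherin Cdh1 was at the floor. The leukocyte markers Ptprc and Adgre1 had no count in any library, and Cd3e and Itgam had at most 2 counts summed over a group. Cd68, a lysosomal protein used as a macrophage marker, had 202 to 419 counts per library, at 12.6 ± 0.767 CPM in P-VITRO against 12.2 ± 0.798 CPM in PTR-VITRO (SD, n = 3 each). None of the marker genes was called by edgeR, where 0.246% of all genes were.

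The integrated stress response starts when any of the eIF2α kinases phosphorylates the translation factor eIF2, which slows protein synthesis and favors translation of ATF4. ATF4 then pairs with C/EBP proteins at composite C/EBP-ATF elements and turns on genes for amino acid synthesis, amino acid uptake, glutathione supply and the recovery of translation. Many tumor cells depend on the program to keep up serine, asparagine and cystine. Inhbe encodes the βE subunit of activin, a secreted protein of the TGF-β family. Cth encodes cystathionine γ-lyase, which releases cysteine from cystathionine in the last step of transsulfuration.

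To show what the members share in sequence, their RefSeq promoter windows (GRCm38.p6, 250 bases before to 50 bases after the start) were searched for TGATGCAA on both strands, which reads TTGCATCA from the other strand. The table of windows held 32 of the 38 members, and 10 of these carried a match. Among all genes with a window, 1.03% had one. As the members were listed as ATF4 pathway genes, this share is a description and not independent evidence. Inhbe is among the 10. The stretches around the match are shown for the members with a match in the order of the genome, 5′ to 3′ on the strand of the gene, with the element in capitals.
Atf3: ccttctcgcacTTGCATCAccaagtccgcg
Chac1: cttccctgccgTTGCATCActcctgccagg
Slc7a11: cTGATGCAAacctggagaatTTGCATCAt
Fgf21: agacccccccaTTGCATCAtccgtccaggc
Nupr1: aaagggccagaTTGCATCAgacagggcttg
Inhbe: catcctctttcTTGCATCAtgcatgtccac
Slc1a4: tgcctcctgcgTTGCATCAtctccagcctg
Pycr1: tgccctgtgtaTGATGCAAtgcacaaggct
Jdp2: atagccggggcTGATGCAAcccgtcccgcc
Vldlr: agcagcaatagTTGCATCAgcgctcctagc

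The Inhbe stretch lies at chr10:127352011-127352040 on the minus strand. In the GENCODE annotation it falls in the first exon of the only Inhbe transcript, in its 5′ untranslated part, since that transcript starts upstream of the RefSeq start. The Slc7a11 stretch at chr3:50443652-50443680 holds 2 matches facing opposite ways, upstream of the annotated gene. The Chac1 stretch at chr2:119351038-119351067, the Fgf21 stretch at chr7:45615611-45615640 and the Pycr1 stretch at chr11:120643833-120643862 lie outside annotated genes. The Atf3 stretch at chr1:191183425-191183454 and the Jdp2 stretch at chr12:85599372-85599401 are intronic. Those of Nupr1 (chr7:126625562-126625591) and Vldlr (chr19:27216809-27216838) overlap annotated exons of these genes. That of Slc1a4 (chr11:20332699-20332728) straddles the annotated start of the gene. The first base of the match stood between 200 bases before the start (Vldlr) and 4 bases before it (Slc1a4).

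**Figure D1:**
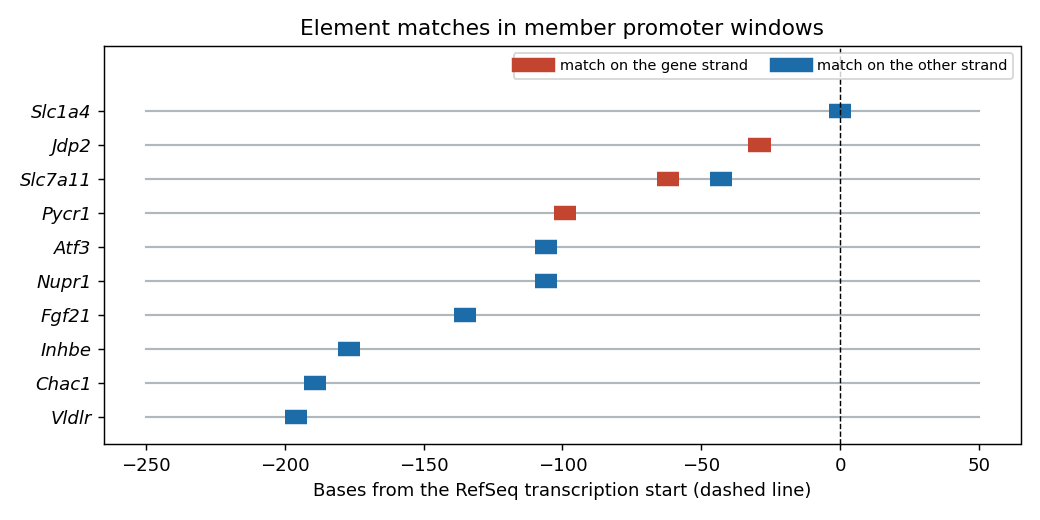
Position of each TGATGCAA match (boxes) in the promoter windows of the 10 members with a match, in bases from the RefSeq transcription start (dashed line), colored by strand. The match of Inhbe begins 181 bases before the start, and Slc7a11 is the member with 2 matches.

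With any base at the sixth position (TGATGNAA), 12 of the 32 members had a match, against 4.51% of all genes with a window. The added members were Trib3 and Asns. Asns carries the element 23 bases before its start, at chr6:7693214-7693243 on the minus strand, in the stretch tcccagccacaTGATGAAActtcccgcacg. The endoplasmic reticulum stress element ERSE was found in 0 of the 32 members and in 0.137% of all genes. The windows table gave no entry for Cth, Ppp1r15b, Eif4ebp1, Slc1a5, Slc7a5 and Slc7a3. A match is a string of letters and shows no binding, and the absence of these letters from a window says nothing of the factor.

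Inhbe and Cth stood higher in every PTR-VITRO library than in any P-VITRO library, and most of the other members did not share that direction. Inhbe (ENSMUSG00000047492.5, chr10:127348857-127354411, minus strand) was at 13.2, 10.9 and 12.6 CPM in P-VITRO, and at 17.2, 19.4 and 18.5 CPM in PTR-VITRO. These values rest on 305 to 326 counts per P-VITRO library and 329 to 559 counts per PTR-VITRO library. The groups did not overlap, and 4.01 CPM separated the highest P-VITRO library from the lowest PTR-VITRO library. The means were 12.2 ± 1.22 and 18.4 ± 1.1 CPM (SD, n = 3 each), and the log2 fold change was 0.59 with a standard error (SE) of 0.0859. In these bulk libraries, a change in how much RNA each cell holds and a change in how many cells express the gene cannot be told apart.

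Cth (ENSMUSG00000028179.12, chr3:157894248-157925077, minus strand) was at 161.2, 156.7 and 156.5 CPM in P-VITRO, and at 182, 191.9 and 195.1 CPM in PTR-VITRO. The groups again did not overlap, with a gap of 20.8 CPM. The means were 158.1 ± 2.66 and 189.7 ± 6.84 CPM (SD, n = 3 each), a log2 fold change of 0.26 (SE 0.0384). Relative to P-VITRO, the ratio of the groups was 1.51 for Inhbe and 1.2 for Cth. Neither gene has a near-identical copy or an annotated exon that overlaps its own.

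In edgeR's quasi-likelihood test over all genes, Inhbe and Cth were the 2 of 35 members called at an adjusted p below 0.05. Both were higher in PTR-VITRO, and no member was called lower. Of all tested genes, 0.246% were called, 0.0985% higher and 0.148% lower. DESeq2 called Chac1 as well (0.864% of all genes), and without a filter on low counts Chac1, Sesn2 and Slc7a5 joined the pair (1.58% of all genes). Because this contrast picked out the pair, nothing is read from these counts. Chac1 and Sesn2, described below, were the nearest members on the other side of the threshold. The call of Inhbe and Cth depended on single libraries. Without P-VITRO replicate 3, neither gene was called (log2 fold changes 0.617 and 0.256), nor without PTR-VITRO replicate 2 (0.546 and 0.254) or PTR-VITRO replicate 3 (0.592 and 0.246). Without P-VITRO replicate 1, Inhbe was called and Cth was not (0.281).

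Ranked by fitted log2 fold change from the highest, Inhbe stood at 140 and Cth at 748 of the 14217 genes tested. The other 33 members had log2 fold changes with a median of -0.0465 and none above 0.0531, with 7 above 0 and 26 below. Over all genes tested, the median was -0.00397 and 51.5% were below 0. None of the 33 was called by edgeR with the filter on low counts (0.246% of all genes). DESeq2 called Chac1 (0.864% of all genes), and the fit without that filter called Chac1, Sesn2 and Slc7a5 (1.58% of all genes). For 25 of the 33 the whole 95% interval lay within 0.2 of 0 on the log2 scale.

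**Figure D2:**
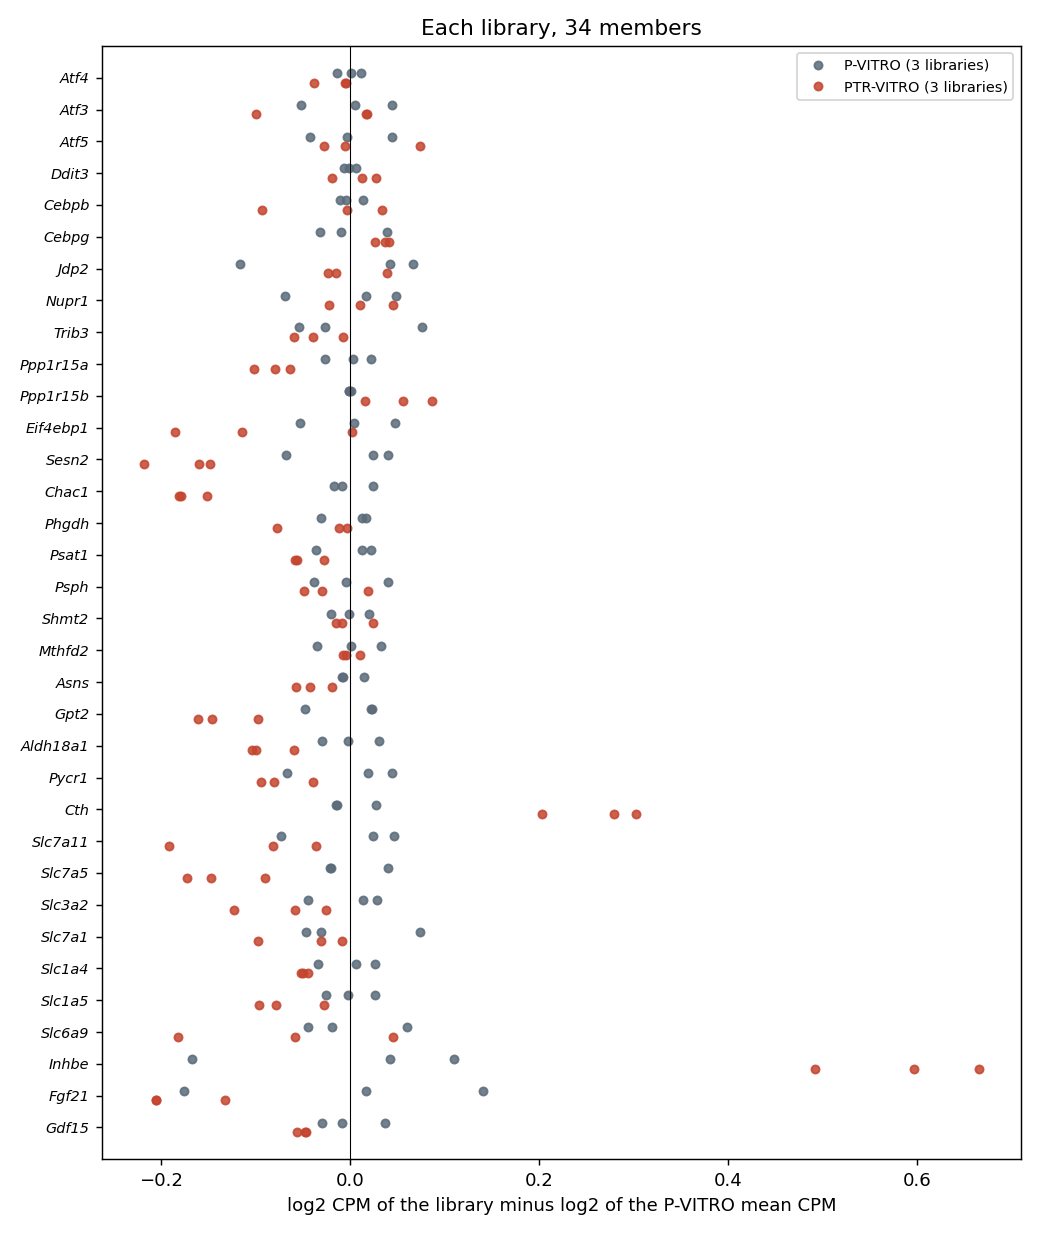
Level of each of 34 members in each library, as log2 CPM minus the log2 of the P-VITRO mean CPM of that member (Cbs, with at most 15 counts in a library, is left out). The 3 PTR-VITRO points of Inhbe and Cth lie to the right of all P-VITRO points, while those of Chac1, Sesn2, Gpt2 and Slc7a5 lie to the left.

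In 3 members (Inhbe, Cth and Ppp1r15b) every PTR-VITRO library was above every P-VITRO library, and in 10 members every PTR-VITRO library was below. Over all genes tested, 17.6% were without overlap, 8.3% in the first direction and 9.33% in the second. The 10 members were Ppp1r15a, Sesn2, Chac1, Asns, Gpt2, Aldh18a1, Slc7a5, Slc1a4, Slc1a5 and Gdf15. The remaining 22 members overlapped between the groups.

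The 8 transcription factors of the response were at nearly the same level in both groups. All 8 overlapped, as did most genes (17.6% of all genes tested were without overlap). Atf4 (ENSMUSG00000042406.7, chr15:80255184-80257541, plus strand), the central activator, was at 1446, 1457 and 1431 CPM in P-VITRO, and at 1407, 1440 and 1441 CPM in PTR-VITRO. Its log2 fold change was -0.0155 (SE 0.0279, 95% interval -0.077 to 0.0459). Atf4 is controlled largely through translation, so its transcript level is only part of its output. Ddit3, which encodes CHOP, the factor that drives the later and pro-apoptotic branch, was at 379.2, 381.3 and 377.8 CPM in P-VITRO, and at 374.6, 386.7 and 382.9 CPM in PTR-VITRO. The log2 fold change of Ddit3 was 0.0071 (SE 0.0307, 95% interval -0.0606 to 0.0749).

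The other factors had log2 fold changes from -0.0199 (Cebpb) to 0.0352 (Cebpg). Atf3, an early stress factor that represses and activates targets, stood at 256 ± 8.6 CPM in P-VITRO against 252.4 ± 11.7 CPM in PTR-VITRO (SD, n = 3 each). Atf5, a factor of the mitochondrial stress response, stood at 222.2 ± 6.62 and 224.5 ± 8.34 CPM. The C/EBP partners Cebpb and Cebpg had means of 155.5 and 167.2 CPM in P-VITRO against 153.4 and 171.3 CPM in PTR-VITRO. Cebpb shares 320 bases with the overlapping Tmem189, which had 284.72 to 495.78 counts per library, so the Cebpb counts are uncertain. Jdp2, a repressor of the AP-1 family, and Nupr1, a stress-induced chromatin protein, differed by 0.0033 and 0.0122 on the log2 scale. All of these overlapped between the groups. The signs of Atf3, Atf5, Ddit3, Cebpb, Jdp2 and Nupr1 turned when single libraries were left out.

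Of the 6 brakes and effectors of the response, 1 had a log2 fold change above 0 and 5 below. Without overlap were 1 higher and 3 lower, where all genes gave 8.3% and 9.33%. None was called by edgeR with the filter (0.246% of all genes). Chac1 was called by DESeq2 (0.864% of all genes), and Chac1 and Sesn2 without the filter (1.58% of all genes). Chac1, which degrades glutathione, and Sesn2 lay furthest below 0. Chac1 was at 152.5, 148.2 and 149.1 CPM in P-VITRO, and at 135, 132.3 and 132.5 CPM in PTR-VITRO, with a gap of 13.2 CPM between the groups. The log2 fold change of Chac1 was -0.17 (SE 0.0349, 95% interval -0.247 to -0.093). Sesn2, a leucine-binding inhibitor of mTORC1, was at 136.9, 128.4 and 138.4 CPM in P-VITRO, and at 121.5, 115.7 and 120.5 CPM in PTR-VITRO. Its groups did not overlap, and its log2 fold change was -0.17 (SE 0.042).

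The paired phosphatase subunits Ppp1r15a and Ppp1r15b, which direct the removal of phosphate from eIF2α, stood on opposite sides. Ppp1r15a, the inducible one (GADD34), was at 625.5, 647.1 and 638.6 CPM in P-VITRO, and at 593.7, 603.1 and 609.7 CPM in PTR-VITRO. This is a log2 fold change of -0.0815 (SE 0.0303). Ppp1r15b, the constitutive one (CReP), was at 205.3, 205 and 204.9 CPM in P-VITRO, and at 207.4, 213.3 and 217.8 CPM in PTR-VITRO. This is a log2 fold change of 0.0531 (SE 0.034). Both were without overlap, and both differences were small beside that of Cth. Ppp1r15b shares 640 bases with an overlapping gene, Gm26616, that had at most 19.59 counts in a library.

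Trib3, a pseudokinase that binds ATF4 and dampens it, overlapped between the groups at 544.7 ± 26.1 CPM in P-VITRO against 531.8 ± 9.65 CPM in PTR-VITRO (SD, n = 3 each). The log2 fold change of Trib3 was -0.0346, and its sign turned without P-VITRO replicate 1 (0.0101). Eif4ebp1, the inhibitor of cap-dependent translation, also overlapped, at 267.2 ± 9.34 and 249.7 ± 16.5 CPM. Its log2 fold change was -0.0957 with a 95% interval from -0.203 to 0.0116, and -0.0506 without PTR-VITRO replicate 3.

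**Figure D3:**
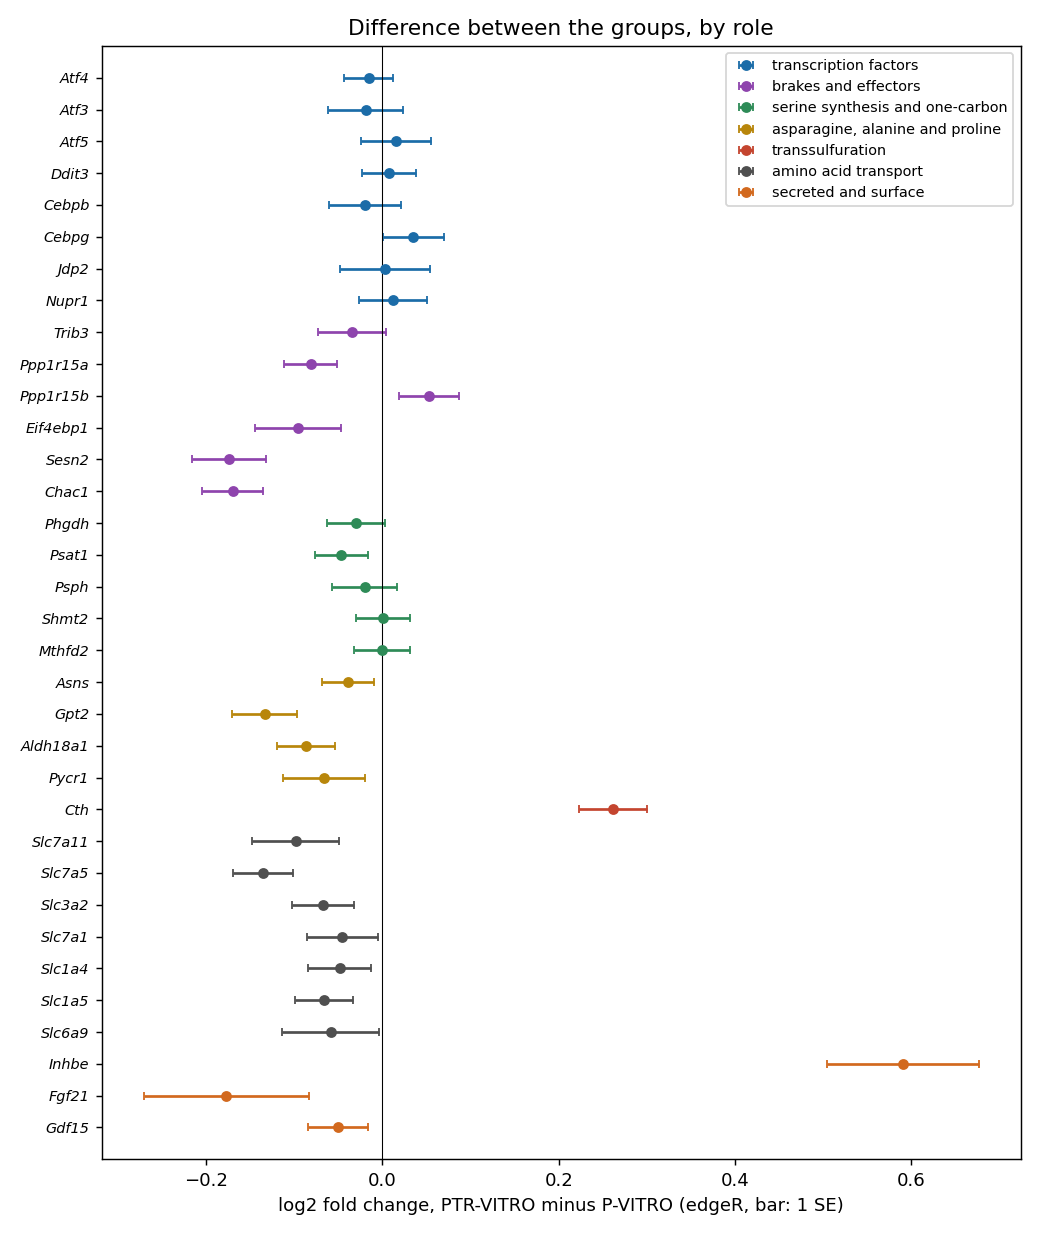
Fitted log2 fold change (PTR-VITRO minus P-VITRO) of 34 members in the order of their roles, with bars of 1 standard error, from edgeR over all genes (Cbs is left out). Inhbe at 0.59 and Cth at 0.26 stand apart to the right, the transcription factors and serine enzymes lie near 0, and transporters lie to the left of 0.

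The enzymes that make serine and carry its carbon into folate stood close together in both groups. All 5 overlapped, where 17.6% of all genes tested were without overlap. Their log2 fold changes ran from -0.0465 (Psat1) to 0.0007 (Shmt2). Phgdh, the first enzyme of serine synthesis, was at 642.9 ± 11.8 CPM in P-VITRO against 629.7 ± 17.7 CPM in PTR-VITRO (SD, n = 3 each). Psat1, the transaminase of the pathway, was at 781.9 ± 16.5 and 757.1 ± 8.86 CPM. Psph, the phosphatase that releases serine, was at 186.9 ± 5.12 and 184.3 ± 4.5 CPM. Shmt2 and Mthfd2, which run the mitochondrial folate steps, were at 529.7 and 369.1 CPM in P-VITRO, and at 529.9 and 369 CPM in PTR-VITRO. The sign of the Mthfd2 difference changed with the scaling of the libraries, and those of Psph, Shmt2 and Mthfd2 turned when single libraries were left out. Phgdh has 12 near-identical copies in the table and Psph shares 452 bases with Cct6a, so their counts are uncertain.

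Of the 4 genes for asparagine, alanine and proline, none was called by edgeR, by DESeq2 or without the filter. Over all genes, these fits called 0.246%, 0.864% and 1.58%. All 4 log2 fold changes were below 0 (51.5% of all genes), 3 of them without overlap (9.33% of all genes in that direction). Gpt2, the mitochondrial alanine aminotransferase, was at 204.2, 204.3 and 194.5 CPM in P-VITRO, and at 187.9, 181.7 and 179.8 CPM in PTR-VITRO. This is a log2 fold change of -0.13 (SE 0.0369). Aldh18a1, which starts proline synthesis from glutamate, was at 367.5, 376 and 360.8 CPM in P-VITRO, and at 343.7, 353.3 and 342.6 CPM in PTR-VITRO. This is a log2 fold change of -0.087 (SE 0.0327). Asns, asparagine synthetase and a standard readout of ATF4, was at 712.9 ± 6.23 and 694 ± 9.39 CPM (SD, n = 3 each). The difference of Asns was -0.0391 on the log2 scale, with a 95% interval from -0.103 to 0.0252. Pycr1, the last enzyme of proline synthesis, overlapped at 44.5 ± 1.76 and 42.4 ± 0.846 CPM, with a 95% interval from -0.169 to 0.0368.

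Cth was far above its partner in transsulfuration, at 62.3 against 0.0528 CPM per kilobase of exon over the 6 libraries. Cbs, which makes the cystathionine that Cth splits, had 15, 15 and 8 counts in P-VITRO and 6, 9 and 7 counts in PTR-VITRO. The groups overlapped, and the 95% interval of its log2 fold change ran from -1.68 to 0.116. Expressed as a share of the counts of Atf4 in the same library, Cth was at 11.1%, 10.8% and 10.9% in P-VITRO and at 12.9%, 13.3% and 13.5% in PTR-VITRO. This ratio does not use the library scaling, and its groups did not overlap. Cth was picked for its difference in these libraries, and Atf4 was nearly level. The ratio therefore restates that difference and is no further support for it.

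Of the 7 transporters tested, none was called by edgeR with the filter (0.246% of all genes), and Slc7a5 was called without it (1.58% of all genes). All 7 log2 fold changes were below 0 (51.5% of all genes), 3 of them without overlap (9.33% of all genes in that direction). Slc7a5, the leucine-importing LAT1, showed the widest gap in CPM. It was at 739.9, 708.9 and 709.5 CPM in P-VITRO, and at 676.2, 649.8 and 638.3 CPM in PTR-VITRO. This is a log2 fold change of -0.14 (SE 0.0341). Slc3a2, the heavy chain that carries LAT1 and the cystine transporter to the surface, overlapped at 704.6 ± 18.7 and 672.3 ± 22.9 CPM (SD, n = 3 each). Slc7a11, the cystine importer xCT, overlapped at 132.6 ± 5.75 and 123.6 ± 6.79 CPM, with a log2 fold change of -0.0984 and a 95% interval from -0.207 to 0.01. Without PTR-VITRO replicate 3, the value of Slc7a11 was -0.0535. Its transcripts share 373 bases at an identity near 96% with the far more counted tubulin genes Tuba1a, Tuba1b and Tuba1c, so its counts are uncertain.

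Slc1a5, the glutamine carrier ASCT2, and Slc1a4, the alanine and serine carrier ASCT1, were without overlap but barely so, with gaps of 0.769 and 0.9 CPM. Their log2 fold changes were -0.0667 and -0.0484. Slc7a1, the cationic amino acid carrier, and Slc6a9, the glycine carrier, overlapped, at -0.0454 and -0.0589. These depended on single libraries, with Slc7a1 at -0.00573 without P-VITRO replicate 2 and Slc6a9 at -0.000357 without PTR-VITRO replicate 3. Slc6a9 shares 1261 bases with the overlapping Ccdc24, which had 60.39 to 148.25 counts per library. Slc7a3, a further cationic carrier, had 6, 11 and 0 counts in P-VITRO and 6, 4 and 2 counts in PTR-VITRO, and was not tested.

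The secreted products Gdf15 and Fgf21 had log2 fold changes below 0 (51.5% of all genes). Neither was called by edgeR (0.246% of all genes) or DESeq2 (0.864% of all genes). Gdf15, a stress hormone of the TGF-β family, was at 206.8, 200.4 and 197.6 CPM in P-VITRO, and at 195.1, 193.9 and 195.2 CPM in PTR-VITRO. Its groups were just without overlap, and its log2 fold change was -0.0501 (SE 0.034), or -0.0266 without P-VITRO replicate 1. Fgf21, a metabolic hormone, was at 12.2, 11.2 and 9.8 CPM in P-VITRO, and at 10.1, 9.6 and 9.6 CPM in PTR-VITRO. Its groups overlapped, with a log2 fold change of -0.18 (SE 0.0935), or -0.103 without P-VITRO replicate 1. Stc2, a glycoprotein hormone, had 0 counts in all 6 libraries, and Vldlr, a lipoprotein receptor, had 1 count in PTR-VITRO replicate 3 and none elsewhere, so neither was measurable at this depth.

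Inhbe was also compared with genes next to it and with its family. As Inhbe was picked for its difference here and Ddit3 was nearly level, the share given next restates that difference. As a share of the counts of Ddit3, which lies 52568 bases away on the same chromosome, Inhbe was at 3.49%, 2.85% and 3.34% in P-VITRO and at 4.6%, 5.03% and 4.82% in PTR-VITRO. The 9 other genes of the interval chr10:127266368-127534559 with a mean count of at least 50, which include Ddit3 and Shmt2, had log2 fold changes from -0.0474 to 0.16. Of these 9, 0 were called by edgeR (0.246% of all genes). The adjacent Inhbc, the βC subunit, had 1 count in P-VITRO and 2 counts in PTR-VITRO in all. Inhba, the βA subunit, was the activin gene with the highest level per length, 35.6 against 2.88 CPM per kilobase of exon for Inhbe. Inhba was at 225.2 ± 21.3 CPM in P-VITRO against 229.5 ± 21.6 CPM in PTR-VITRO (SD, n = 3 each). Inhbb, the βB subunit, was at 0.61 and 0.434 CPM, from 7 to 20 counts per library.

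The members carrying the TGATGCAA element lay on both sides of 0. Of the 10, 9 were tested, Inhbe among them, with 3 log2 fold changes above 0 and 6 below and a median of -0.0484. Over all genes tested, 51.5% were below 0. Besides Inhbe, Jdp2 and Nupr1 were above 0, and their signs turned when single libraries were left out. The part of the element in these values was not tested. Of the members with a window but no match, 21 were tested, with 4 above 0 and 17 below and a median of -0.0391. Atf3, Nupr1, Chac1, Fgf21 and Slc7a11, whose stretches are printed above, all lay between -0.18 and 0.0122.

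Compared per length of exon, the members spanned a wide range. Over the 6 libraries, Atf4 was highest at 609.4 CPM per kilobase of exon. Asns at 257.2, Phgdh at 255.9 and Trib3 at 253.3 followed with overlapping ranges, and Ddit3 stood at 222.1. Cth was in the middle of the list at 62.3 CPM per kilobase. Apart from Cbs, Slc7a3, Stc2 and Vldlr, Inhbe was the lowest member, at 2.88 CPM per kilobase, below Slc7a11 at 9.2 and Fgf21 at 10.9. The Inhbe value depends on the long first exon that the annotation gives it.

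**Figure D4:**
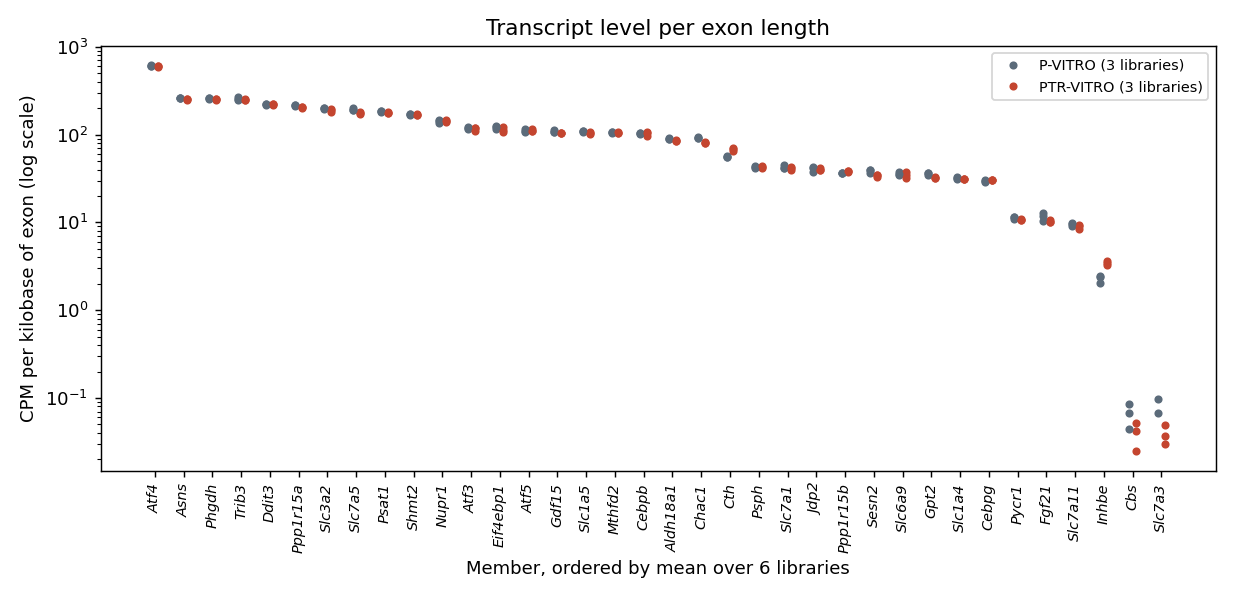
CPM per kilobase of exon (log scale) of the members in each library, ordered by their mean. Atf4 is highest, and Inhbe is the lowest apart from Cbs and Slc7a3. Stc2 and Vldlr are not drawn, and neither is the library in which Slc7a3 had no count.

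The members were deeply counted and even between libraries. Their median was 223.3 CPM, against 22.7 CPM over all genes tested, and 30 of the 35 exceeded 100 CPM, as did 15.9% of all genes. The median SD within a group was 0.0391 on the log2 scale for the members and 0.0864 for all genes. The median standard error of a log2 fold change was 0.0369 for the members and 0.0707 for all genes. Counts for all 38 made up 1.21%, 1.19% and 1.19% of the P-VITRO libraries and 1.18%, 1.18% and 1.17% of the PTR-VITRO libraries.

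**Figure D5:**
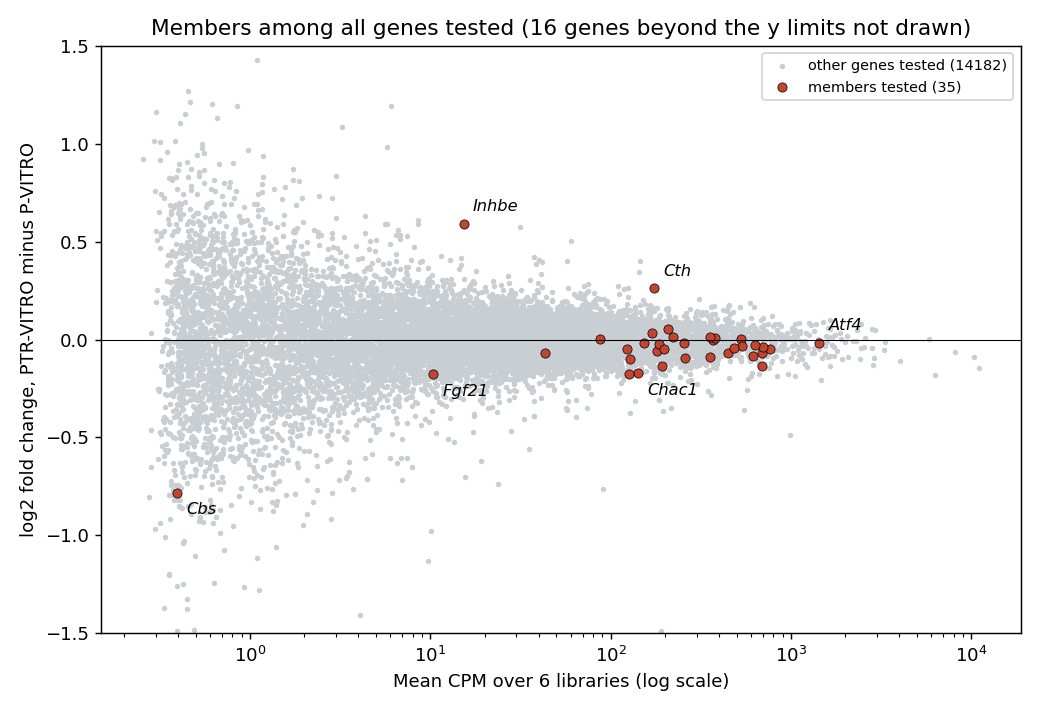
Mean CPM over 6 libraries (log scale) and fitted log2 fold change of the 35 members tested (red) and of 14182 other genes (grey). Most members lie among the abundant genes close to 0, Inhbe and Cth lie at the upper edge of genes of their level, and 16 genes beyond 1.5 in either direction are not drawn.

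P-VITRO replicate 1 stood above the other P-VITRO libraries for many members. Relative to the mean over all 6 libraries, the median of the other 33 members was 0.043 in it, 0.0066 and 0.0121 in P-VITRO replicates 2 and 3, and -0.021, -0.0231 and -0.0226 in the PTR-VITRO libraries, all on the log2 scale. P-VITRO replicate 1 was the highest of its group for 17 of the 33, and PTR-VITRO replicate 1 likewise for 17 of the 33. Over all genes tested, these libraries were the highest of their group for 34.9% and 41.1% of genes. Without P-VITRO replicate 1, the median log2 fold change of all members tested moved from -0.0454 to -0.0266. The part of this library in the values below 0 was not tested otherwise.

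The list was set beside other genes of the pathway. Of 109 further genes picked for their roles, 94 were tested and 0 were called by edgeR's quasi-likelihood test, where 0.246% of all genes were called. At an unadjusted p below 0.05 there were 20 of the 94, against 11.4% of all genes. limma-voom called 0. DESeq2 called 1, the arginyl-tRNA synthetase Rars, where it called 0.864% of all genes, and the fit with the replicate block also called Rars. Without a filter on low counts, 5 were called (Bcat2, Eif2ak2, Hspa5, Kars and Rars), with 1.58% of all genes. In all, 36 were above 0 and 58 below, with a median log2 fold change of -0.0426.

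Of the eIF2 kinases and the eIF2 machinery, 11 of 16 were above 0, with a median of 0.0184. Eif2ak2 (PKR), the kinase that senses double-stranded RNA, had the highest value of the list, 0.18 (SE 0.0593), with an edgeR adjusted p of 0.278 and overlapping groups. Eif2ak3 (PERK), which senses stress of the endoplasmic reticulum, was at -0.13 (edgeR adjusted p = 0.574). Eif2ak1 (HRI) and Eif2ak4 (GCN2), the sensors of heme and mitochondrial stress and of uncharged tRNA, were at -0.0449 and -0.0649. The GCN2 activator Gcn1 had the lowest value, -0.15 (edgeR adjusted p = 0.184).

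Among 21 genes, the cytosolic tRNA synthetases and a tRNA exporter, 9 were above 0 and 12 below, with a median of -0.0172. Rars was highest at 0.17 (SE 0.0355, edgeR adjusted p = 0.0919), with 419.5 ± 14 CPM in P-VITRO against 471.5 ± 10.4 CPM in PTR-VITRO (SD, n = 3 each) and no overlap. Kars, the lysyl-tRNA synthetase, was lowest at -0.16 (edgeR adjusted p = 0.208).

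Among 25 further enzymes of amino acids and folate, 6 were above 0 and 19 below, with a median of -0.056. Bcat2, which starts the breakdown of branched-chain amino acids, was lowest at -0.24 (SE 0.0457, edgeR adjusted p = 0.0668), with 39.9 ± 0.927 CPM in P-VITRO against 33.7 ± 0.59 CPM in PTR-VITRO (SD, n = 3 each). Of 7 further transporters tested, 2 were above 0 and 5 below. Slc7a6 marked the low end at -0.12 and Slc38a9, the lysosomal arginine sensor, the high end at 0.0704.

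Of 17 further stress targets, 6 were above 0, with a median of -0.0504. Creb3l3, a membrane-bound factor with 11 to 26 counts per library, had the highest value, 0.43 (SE 0.277), with overlapping groups, and is named after its value was seen. Hspa5, the chaperone BiP, was at 4200 ± 214.4 CPM in P-VITRO against 3890 ± 212 CPM in PTR-VITRO (SD, n = 3 each), a log2 fold change of -0.11 with overlapping groups (edgeR adjusted p = 0.386). Xbp1, the factor of the unfolded protein response, Herpud1, a degradation component of the endoplasmic reticulum, and Ddit4, an mTORC1 inhibitor, were at -0.055, -0.13 and -0.0383. The autophagy receptor Sqstm1 and the antioxidant factor Nfe2l2 had the highest values where the mean count was 50 or more, both 0.0434. Of 8 tested genes from a list of activin subunits, receptors and binders that also held an FGF receptor, 2 were above 0 and 6 below. Inhba was highest at 0.024, and the activin receptor Acvr1b had the lowest value at a mean count of 50 or more, -0.19 (edgeR adjusted p = 0.565).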

How the data were processed

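Polyadenylated RNA of 6 samples of EMT6 cells was sequenced from stranded libraries. The authors aligned reads with STAR 2.6.0a to GRCm38 and quantified genes with RSEM 1.3.1 (FastQC 0.11.5 is also listed in the submitters' processing notes). The deposited table holds RSEM estimated counts (expected counts), not scaled between libraries, and 12.5% to 13.8% of the values of a library were not whole. Whether RSEM was told the strand is not given in the sources used here, so overlapping genes on opposite strands, such as Ddit3 and Mars, are uncertain. Names, positions and exon lengths came from GENCODE annotation of GRCm38, and 53274 of 53465 identifiers had a symbol. Every sample column was used.

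Estimated counts were rounded. Genes were kept with filterByExpr (minimum count 10, minimum total 15), leaving 14217 genes, and upper-quartile factors scaled the libraries. PTR-VITRO was tested against P-VITRO in edgeR 4.0.16 (R 4.3.3) by its quasi-likelihood F test, group being the only term, with Benjamini-Hochberg adjustment over all tested genes and calls at an adjusted p below 0.05. On simulated data with 200 genes changed 2-fold, 200 were recovered and 6.1% of calls were false. The changed genes had a mean count of at least 50, and all genes were given the same spread. The members differed by less than 2-fold, and recovery of changes of their size was not tested. CPM values use the scaled library sizes and are given as mean ± SD. Intervals of log2 fold changes are 95% intervals from the same fit and are not adjusted for the number of genes.

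The members and lists were chosen with earlier results of these data known. All 38 members are described. From the further lists, those called, the highest and lowest log2 fold change at a mean count of at least 50, and Hspa5, Xbp1, Herpud1, Ddit4, Eif2ak1 to Eif2ak4, Inhba, Inhbb and Inhbc are named. Any other gene that this rule would name is not reported here. As alternatives, DESeq2 1.42.0, limma-voom (limma 3.58.1), TMM scaling, unscaled libraries, no filter on low counts, at least 10 counts in every library, a block for the replicate number, and each library left out in turn were run. Near-identical copies were searched with BLAST+ 2.17.0 (at least 200 aligned bases with an identity of 95% or more). Promoter sequences are from RefSeq (GRCm38.p6).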

Additional observations from a re-analysis of the deposited data

How the results depend on the processing

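The main analysis called 35 genes. DESeq2 called 104, no filter on low counts 400, at least 10 counts in every library 54, the replicate block 68, and leaving out single libraries 8 to 64. Members called numbered 2, 5 without the filter (Chac1, Cth, Inhbe, Sesn2 and Slc7a5), 3 with DESeq2, and 0 to 2 with single libraries left out. Further pathway genes called numbered 0, 1 with DESeq2, 5 without the filter and 1 with the replicate block. The median log2 fold change of the members was -0.0454, and -0.048 to -0.0266 with single libraries left out. Reversed were Jdp2 (-0.00175) and Shmt2 (-0.00465) with at least 10 counts in every library, and Mthfd2 with TMM (0.000466), no scaling factor (0.0119), DESeq2 (0.00331) and no filter (0.000719). The cause was not tested. Leaving out single libraries gave Atf3 -0.0422 to 0.022, Atf5 -0.0143 to 0.0398, Ddit3 -0.00139 to 0.0214, Cebpb -0.0478 to 0.0177, Jdp2 -0.0515 to 0.0395, Nupr1 -0.0203 to 0.0422, Trib3 -0.0598 to 0.0101, Psph -0.0385 to 0.00573, Shmt2 -0.0101 to 0.0158 and Mthfd2 -0.0123 to 0.0168. Values that kept their sign but moved by over 1.5 times were those of Atf4 (-0.0204 to -0.00294), Cebpg (0.0217 to 0.0602), Eif4ebp1 (-0.147 to -0.0506), Phgdh (-0.0446 to -0.00551), Psat1 (-0.063 to -0.0302), Pycr1 (-0.0986 to -0.0419), Cbs (-0.982 to -0.486), Slc7a11 (-0.133 to -0.0535), Slc3a2 (-0.088 to -0.0369), Slc7a1 (-0.0663 to -0.00573), Slc6a9 (-0.115 to -0.000357), Fgf21 (-0.253 to -0.103) and Gdf15 (-0.0622 to -0.0266). Inhbe stayed between 0.508 and 0.655 and Cth between 0.246 and 0.292.

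Same-numbered libraries of the groups had correlations of their deviations of 0.183, 0.0929 and -0.0428 over all genes, so the numbers were not taken to pair the samples. Of 244 values under the other settings, 234 had the same sign and the same call, 4 came to pass it and 6 reversed. Of 209 values with a library left out, 184 had both, 7 no longer passed and 18 reversed. Over all genes, the median stayed between -0.0109 and 0.00844. Depth limits Slc7a3, Stc2, Vldlr and Cbs.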

Other observations

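Phgdh, the first enzyme of serine synthesis, shares sequence with 12 other genes in the table, mostly processed copies, and held 64% of the counts summed over all of them. Gm7901 and Gm9347 held most of the rest, with 3862.43 and 3784.35 estimated counts in P-VITRO replicate 1. The log2 fold change of the sum was -0.0233 (SE 0.0303), against -0.0301 (SE 0.033) for Phgdh alone. This sum was added after seeing the data.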
